A study of Mus musculus with 18 samples.

Results

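Expression of 10 genes that mark stem and progenitor cells of the hair follicle (Cd34, Lgr5, Lgr6, Lrig1, Sox9, Lhx2, Nfatc1, Plet1, Cd200 and Hr) was followed by mRNA sequencing from irradiated skin to skin tumour. Members were the rows of the deposited table that carry one of these symbols, which found 9 of the 10 among 14521 named genes. Plet1 has no row under that symbol. Its older symbol in RefSeq, 1600029D21Rik, has a row, whose values are given separately and are not counted among the 9. The animals were 6 female littermates of the outbred SKH-1E Hairless strain, which lacks a functional Hr gene, so that every group carries this defect. All were chronically exposed to ultraviolet light from a solar simulator. From each mouse came skin without a lesion that had received the same irradiation (CHR), a papilloma (PAP), a benign tumour of epidermal cells, and a squamous cell carcinoma of the skin (SCC). This gave 18 libraries, with n = 6 mice in each of 3 groups. Unirradiated skin was not analysed here, so CHR is the reference throughout. The samples are pieces of tissue, and the lesions were judged by histology to be mostly, but not wholly, tumour.

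The hair follicle is a tubular appendage of the epidermis that is rebuilt in cycles from stem cells. Most of these lie in the bulge, a part of the outer root sheath below the sebaceous gland, while other pools lie in the isthmus and junctional zone above it. Cd34, Sox9, Lhx2, Nfatc1 and Cd200 are known from the bulge, Lgr5 from the lower bulge and hair germ, and Lgr6, Lrig1 and Plet1 from the upper follicle. Hr encodes a nuclear corepressor without which the follicle is not rebuilt after its first cycle, and skin of such mice keeps follicle remnants and cysts. Most of these genes are also active outside the follicle. Cd34 marks blood vessels, dermal fibroblasts and mast cells, and Nfatc1 and Cd200 are found in blood and vessel cells.

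Each library held 15.4 to 21 M recovered reads, with a median of 18.9 M, and no library stood apart in depth. The carcinoma of mouse 10 stood apart in its content of other tissue, with a summed 101 normalised reads of skeletal muscle markers against 11689 to 20808 in the other carcinomas, and 17962 of fibroblast markers against 121676 to 497510. The papilloma of the same mouse had 5496 normalised reads of fibroblast markers against 53533 to 161883 in the other papillomas, 121 of mast cell markers against 565 to 2093, and 142 of T cell markers against 228 to 508. Other lesions stood apart in single lists. The carcinoma of mouse 7 had 63775 normalised reads of myeloid markers against 4660 to 22574 in the other carcinomas. Its basal keratinocyte sum was 159366 against 273394 to 470149. The carcinoma of mouse 2 had 335655 of suprabasal markers against 13600 to 91507. The papilloma of mouse 2 had 5818 of skeletal muscle markers against 120 to 298 in the other papillomas. Values below are normalised reads, that is, reads divided by the size factor of the library. Fold changes are on the log2 scale of the deposited value + 1, which understates the change of genes with few reads. A gene was called when its adjusted p in limma, fitted on all genes with the mouse as a block, was below 0.05. The Hr row counts reads over the whole gene and therefore does not test the defect of the strain. Its 1307 to 9185 normalised reads over the 18 libraries say only that transcripts of the locus were present. Skin was recognisable by its keratins, with a mean of 46427 normalised reads of the basal keratin gene Krt5 in CHR.

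Promoter windows of the called members are shown because these genes moved in the same direction in PAP vs CHR. RefSeq's table for GRCm38.p6 had windows for 5 of the 9 members, and those of Cd34, Lgr6, Lrig1 and Cd200 are printed, while Lhx2 was not called. Each holds 200 bases, 5′ to 3′ in the direction of the gene, and ends 20 bases before the start. Capitals mark matches, on either strand, to the core letters CTTTG of TCF/LEF factors, GGAAA of NFAT factors, ATTGT of SOX factors, TAATTA of LIM homeodomain factors, TGANTCA of AP-1 and GGGCGG of the GC box.
Cd34, chr1:194938601-194938800, plus strand: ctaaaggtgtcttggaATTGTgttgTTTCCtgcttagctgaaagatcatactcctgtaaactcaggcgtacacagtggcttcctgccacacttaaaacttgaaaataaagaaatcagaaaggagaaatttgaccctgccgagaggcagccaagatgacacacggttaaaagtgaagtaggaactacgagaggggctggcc
Lgr6, chr1:135105297-135105496, minus strand: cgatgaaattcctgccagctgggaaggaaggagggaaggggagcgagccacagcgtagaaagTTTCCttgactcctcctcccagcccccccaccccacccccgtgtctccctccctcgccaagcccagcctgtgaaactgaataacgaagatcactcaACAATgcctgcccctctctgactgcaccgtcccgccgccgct
Lrig1, chr6:94700166-94700365, minus strand: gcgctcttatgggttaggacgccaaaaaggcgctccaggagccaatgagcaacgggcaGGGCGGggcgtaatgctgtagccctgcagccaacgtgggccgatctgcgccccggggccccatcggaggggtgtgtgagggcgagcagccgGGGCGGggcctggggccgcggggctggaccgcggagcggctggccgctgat
Cd200, chr16:45409074-45409273, minus strand: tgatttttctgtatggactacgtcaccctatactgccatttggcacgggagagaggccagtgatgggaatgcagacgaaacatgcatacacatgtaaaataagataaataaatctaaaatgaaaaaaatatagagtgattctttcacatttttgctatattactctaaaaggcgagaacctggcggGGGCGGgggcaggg

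The windows shared little. Cd34 and Lgr6 each held 1 NFAT core and 1 SOX core, Lrig1 held 2 GC boxes and Cd200 held 1, and no matches overlapped each other. Over 32851 windows of the same length, the NFAT core occurred in 47.7%, the SOX core in 23.4% and the GC box in 28.7%. The TCF/LEF core (41% of all windows), the LIM homeodomain letters (3.99%) and the AP-1 letters (5.55%) were not in these 4 windows. Base composition differed as well, with 72% G and C and 20 CpG in Lrig1 but 41.5% and 6 CpG in Cd200, against a median of 52.5% G and C over all windows. A match is a description of letters and does not show binding.

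The first comparison asked whether markers of the follicle stem cell pools differ between irradiated skin and papilloma. Of the 9 members, 6 were called lower in PAP than in CHR (Cd34, Lgr5, Lgr6, Lrig1, Nfatc1 and Cd200) and 0 higher. Over all genes, 29.3% were called lower, 4251 of 14521. All 9 had a log2 fold change below 0, compared with 49.9% of all genes, and the median over members was -1.09 against 0.00 over all genes. In tissue samples, fewer cells of a type and less RNA per cell cannot be told apart. The number called was 6 or 7 under every alternative and without any single mouse.

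**Figure D1:**
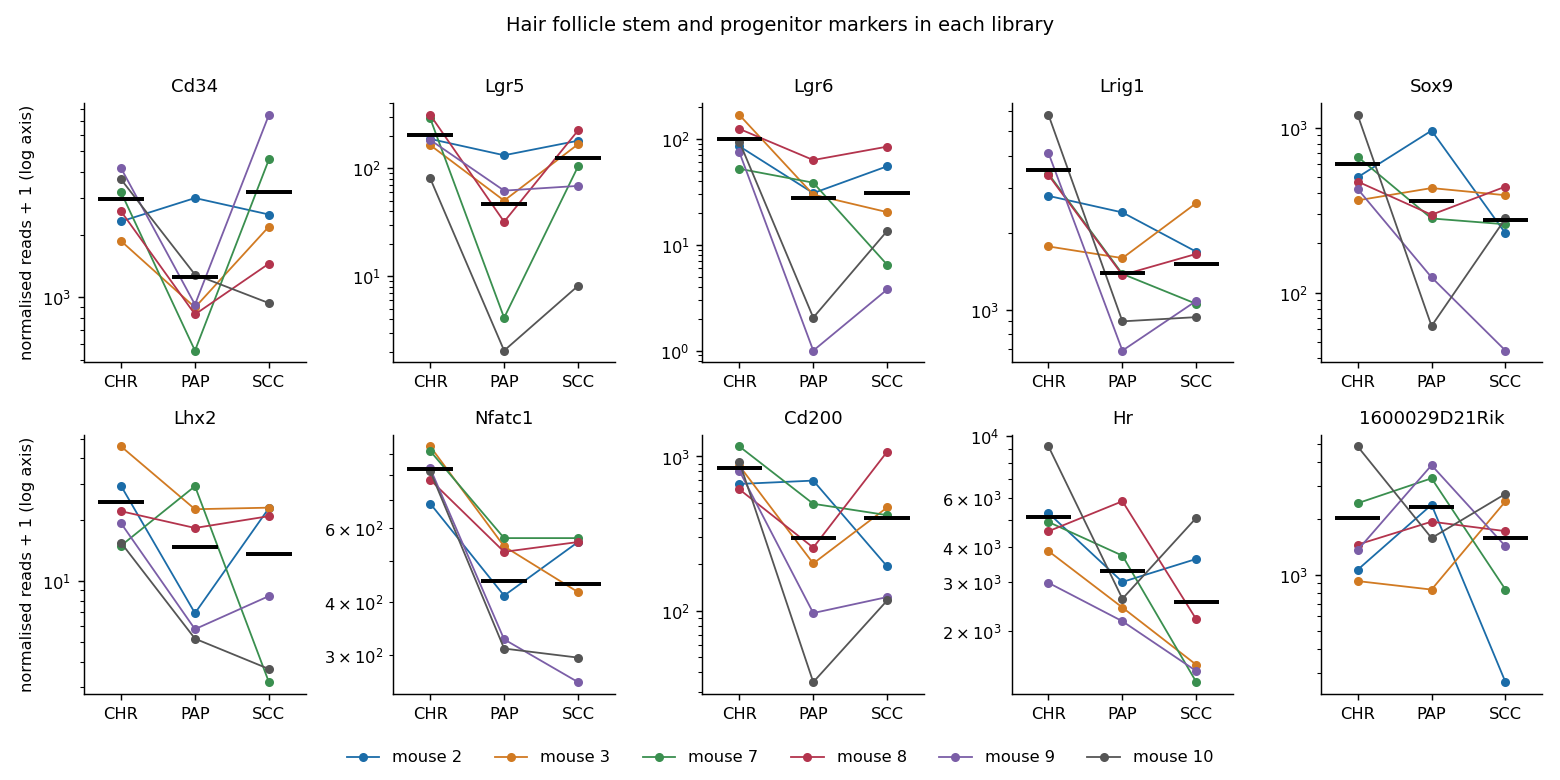
Normalised reads + 1 on a log axis for the 9 members and 1600029D21Rik (the row of Plet1) in CHR, PAP and SCC. Points joined by a line are the libraries of 1 mouse and black bars are group means (n = 6). Nfatc1 was lower in all PAP and SCC libraries than in any CHR library, with at most 566 against at least 684 normalised reads, whereas the groups of the other genes overlapped.

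Nfatc1 (ENSMUSG00000033016.16, GRCm38 chromosome 18, 80606205 to 80713071) encodes a transcription factor that holds bulge stem cells in quiescence. Its normalised reads ranged from 684 to 935 with a median of 823 in CHR, and from 309 to 566 with a median of 469 in PAP. No PAP library reached the level of any CHR library, a separation seen in 19.2% of all genes and in 1 of the 9 members. Its mean of normalised reads was 1.85-fold lower in PAP and the gene was lower in 6 of 6 mice, and limma gave -0.81 ± 0.14 (log2 fold change ± SE) and an adjusted p of 0.000463. Its libraries lay close together in CHR, at 826 ± 91.3 normalised reads (mean ± SD, n = 6).

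Lgr6 (ENSMUSG00000042793.13, chromosome 1, 134983301 to 135105276) encodes a receptor for R-spondins, secreted proteins that strengthen Wnt signalling, and marks cells of the isthmus. It ranged from 51.1 to 167 normalised reads in CHR (median 88.6) and from 0 to 62 in PAP (median 29.2). The papilloma of mouse 9 had 0 reads, which allows up to 3, and that of mouse 10 had 1.05 normalised reads, while the highest papilloma, of mouse 8, lay above the lowest CHR library. Lgr6 was lower in 6 of 6 mice, with -1.09 ± 0.22 on the log2 scale and a limma adjusted p of 0.0011. In limma-voom on recovered reads, which does not compress low values, its log2 fold change was -2.10.

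Lgr5 (ENSMUSG00000020140.15, chromosome 10, 115450311 to 115587780) encodes the related receptor of actively cycling follicle stem cells. It ranged from 79.7 to 311 normalised reads in CHR (median 184) and from 1.05 to 131 in PAP (median 40.1). Papillomas of mice 7 and 10 were close to 0, at 3.13 and 1.05, and that of mouse 2 was the highest and the only one above the lowest CHR library. In limma its log2 fold change was -1.48 ± 0.27 (adjusted p 0.000503), in limma-voom it was -2.42, and 6 of 6 mice shared the direction.

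Lrig1 (ENSMUSG00000030029.14, chromosome 6, 94604529 to 94700158) encodes a membrane protein that dampens growth factor receptors and marks the junctional zone. It ranged from 1769 to 5802 normalised reads in CHR (median 3389) and from 690 to 2405 in PAP (median 1373). The groups overlapped where the papilloma of mouse 2 exceeded CHR of mouse 3. Within mice 2 and 3 the log2 differences were -0.21 and -0.15, whereas mice 9 and 10 differed by -2.45 and -2.59. Lrig1 was lower in 6 of 6 mice, with a log2 fold change of -1.32 ± 0.33 and a limma adjusted p of 0.00502. Together with Nfatc1, Lgr5 and Lgr6 this made 4 of 9 members lower in 6 of 6 mice, against 26.3% of all genes. Exons of Lrig1 overlap those of Slc25a26 on the other strand, and whether counting used the strand is not given in the sources used here.

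Cd200 (ENSMUSG00000022661.14, chromosome 16, 45382135 to 45409053) encodes a surface protein that restrains immune cells. It ranged from 612 to 1161 normalised reads in CHR (median 839) and from 33.6 to 697 in PAP (median 229). Mouse 2 did not share the difference, at 663 in CHR and 697 in PAP, while mouse 10 went from 923 to 33.6. Papillomas were lower in 5 of 6 mice, by -1.61 ± 0.42 on the log2 scale in limma (adjusted p 0.00619).

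Cd34 (ENSMUSG00000016494.9, chromosome 1, 194938819 to 194961279) encodes a sialomucin of the cell surface. It ranged from 1861 to 4155 normalised reads in CHR (median 2884) and from 555 to 2990 in PAP (median 908). In 5 of 6 mice the papilloma was lower, and in mouse 2 it was higher, at 2990 against 2310. On the log2 scale limma gave -1.35 ± 0.42, with 0.0168 as adjusted p. The call was lost narrowly without mouse 7 (adjusted p 0.0507) and without mouse 8 (0.0511). Exons of Cd34 overlap the antisense gene Gm16897, with the same doubt on strand.

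**Figure D2:**
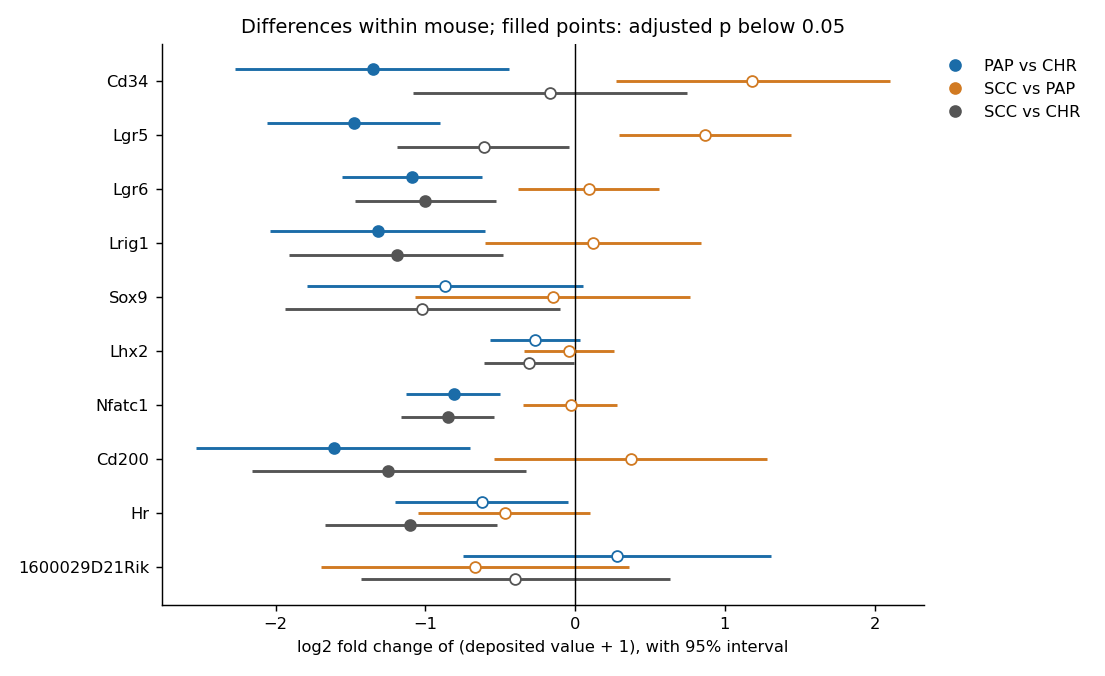
Log2 fold change of the deposited value + 1 with its 95% interval for each gene in PAP vs CHR, SCC vs PAP and SCC vs CHR, from the limma fit with the mouse as a block (18 libraries). Filled points have an adjusted p below 0.05 over 14521 genes. The filled points of members all lie below 0, 6 of them for PAP vs CHR, 5 for SCC vs CHR and 0 for SCC vs PAP.

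Sox9, Lhx2 and Hr were not called in PAP vs CHR. Sox9 (ENSMUSG00000000567.5, chromosome 11, 112782224 to 112787760), a transcription factor that specifies the outer root sheath and its stem cells, had a log2 fold change of -0.87 (95% interval -1.79 to 0.05, limma adjusted p 0.102). It ranged from 362 to 1195 normalised reads in CHR (median 486) and from 61.9 to 960 in PAP (median 288). Mice 2 and 3 went up, with within-mouse log2 differences of 0.85 and 0.21, and mouse 10 went down by the most, at -3.30. With 1 mouse left out, its log2 fold change lay between -0.39 (adjusted p 0.391) without mouse 10 and -1.22 (0.0324) without mouse 2, and only the latter passed the threshold.

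Lhx2 (ENSMUSG00000000247.11, chromosome 2, 38339281 to 38369733), a LIM homeodomain factor of follicle progenitors, had the lowest level of the members. It had 13.9 to 44.8 normalised reads in CHR (median 19.6) and 4.2 to 28.2 in PAP (median 11.6). Its log2 fold change was -0.27 (-0.57 to 0.03, limma adjusted p 0.116), or -0.98 in limma-voom, where the adjusted p was 0.0908. Mouse 7 alone had a higher papilloma, and without it Lhx2 was called lower, with -0.39 and an adjusted p of 0.0155, whereas without mouse 2 the value was -0.20 (0.261).

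Hr (ENSMUSG00000022096.14, chromosome 14, 70552212 to 70573548) ranged from 2972 to 9185 normalised reads in CHR (median 4735) and from 2163 to 5837 in PAP (median 2800). It was lower in 5 of 6 mice, by -0.62 on the log2 scale (-1.20 to -0.05, limma adjusted p 0.0658). Mouse 8 was the exception, at 4554 in CHR and 5837 in PAP, and without it Hr was called lower, with -0.82 and an adjusted p of 0.0324. Without mouse 10, whose CHR library had the highest Hr of its group, the value was -0.39 (0.178).

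1600029D21Rik (Plet1, ENSMUSG00000032068.14, chromosome 9, 50494525 to 50505482), which encodes a surface protein of the upper follicle and sebaceous duct, had a log2 fold change of the opposite sign to the 9 members in PAP vs CHR and was not called. Its normalised reads were 925 to 4857 in CHR (median 1403), 833 to 3854 in PAP (median 2145) and 266 to 2708 in SCC (median 1566). The groups overlapped over most of their range. Its log2 fold change was 0.28 (-0.75 to 1.31, limma adjusted p 0.652) in PAP vs CHR, -0.67 (-1.70 to 0.36, 0.425) in SCC vs PAP and -0.40 (-1.43 to 0.63, 0.539) in SCC vs CHR. Its exons overlap those of Plet1os on the other strand.

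The second comparison asked whether the markers differ between the papilloma and the carcinoma of a mouse. Limma called 0 of 9 members in SCC vs PAP, with 9.85% of all genes called in either direction. At an unadjusted p below 0.05 there were 2 members, Cd34 and Lgr5, against 24.6% of all genes. Limma-voom called 1 of them, Lgr5, against 12% of all genes. The median log2 fold change over members was 0.09, against -0.02 over all genes. The count over all genes depended on the animals, being 1430 with all mice, 471 without mouse 3, 0 without mouse 7, 0 without mouse 8 and 1995 without mouse 10, so the share of 9.85% is itself uncertain.

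Lgr5 had the more regular difference of these. It ranged from 7.16 to 223 normalised reads in SCC (median 134) against 1.05 to 131 in PAP, and the carcinoma was higher than the papilloma in 6 of 6 mice, as for 8.38% of all genes and 1 of the 9 members. In mouse 9 the rise was small, from 61.1 to 67.7 normalised reads, and in mouse 10 it was from 1 to 8 recovered reads. On the log2 scale the difference of Lgr5 over all mice was 0.87 ± 0.27 (95% interval 0.29 to 1.44), and the limma adjusted p was 0.0578. Of 14 alternatives 3 called it, namely limma-voom with either library size (1.76 and 1.82, adjusted p 0.0364 and 0.0339) and the fit without mouse 2 (0.98, 0.0495). In the other direction, it was 0.70 (0.18) without mouse 7 and 0.71 (0.237) without mouse 8, and the adjusted p was 0.19 without the mouse as block and 0.135 with the mouse as random effect.

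Cd34 ranged from 938 to 7477 normalised reads in SCC (median 2337), the widest range of any group of this gene. The carcinoma exceeded the papilloma in 4 of 6 mice, by within-mouse log2 differences of 2.92 in mouse 9 and 2.88 in mouse 7, and was lower in mice 2 and 10. On the log2 scale limma gave 1.18 ± 0.42 (0.27 to 2.10), with 0.0981 as adjusted p. Without mouse 10 it was 1.50 with an adjusted p of 0.0336, and it was 0.84 both without mouse 7 (0.364) and without mouse 9 (0.251).

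The other 7 members had log2 fold changes of -0.47 to 0.37 between SCC and PAP. The interval was narrow for Nfatc1, at -0.35 to 0.28, and wide for Sox9, at -1.07 to 0.77, and Cd200, at -0.54 to 1.28. For Lhx2 it was -0.34 to 0.26, but on a scale that understates changes at few reads. Lhx2 had 4 to 27 recovered reads in PAP and 2 to 25 in SCC, so its interval does not show a precise estimate. Hr was lower in SCC in 4 of 6 mice with -0.47 (-1.05 to 0.10, limma adjusted p 0.302), and without mouse 10, whose carcinoma had the highest Hr of its group at 5091 normalised reads, it was called lower with -0.76 and 0.0456. Without mouse 7 it was -0.28 (0.694) and without mouse 8 it was -0.29 (0.654).

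The third comparison set carcinoma against irradiated skin. In SCC vs CHR, 5 of 9 members were called lower (Lgr6, Lrig1, Nfatc1, Cd200 and Hr) and 0 higher, compared with 22.7% of all genes called lower. All 9 had a log2 fold change below 0, and the median was -1.00 against -0.02 over all genes. The comparisons share libraries, so the members' values in PAP vs CHR and SCC vs CHR are not independent. When only CHR and SCC entered the fit, 8 members were called lower, with Lgr5 (adjusted p 0.0418), Sox9 (0.0327) and Lhx2 (0.0446) added, against 22.7% of all genes called lower in that fit too.

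Nfatc1 again separated the groups, at 257 to 566 normalised reads in SCC (median 487), which 11.2% of all genes and 1 of 9 members did. Limma gave -0.85 ± 0.14 on the log2 scale and an adjusted p of 0.000728. Lgr6 had 2.78 to 83.3 normalised reads in SCC (median 15.9) and a log2 fold change of -1.00 ± 0.22 (adjusted p 0.00338), and -1.81 in limma-voom. The carcinomas of mice 2 and 8 kept 54 and 83.3 normalised reads of Lgr6, whereas those of mice 7 and 9 had 5.46 and 2.78.

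Hr had 1307 to 5091 normalised reads in SCC (median 1852), with a mean 2.03-fold below that of CHR. On the log2 scale this was -1.10 ± 0.27 (limma adjusted p 0.00644). Nfatc1, Lgr6, Hr and Lhx2 were lower in 6 of 6 mice, 4 of 9 members against 22.2% of all genes. For Lhx2 this was nearly a tie in mouse 8, with 23 recovered reads in both groups (21 normalised in CHR and 19.8 in SCC).

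Lrig1 had 934 to 2618 normalised reads in SCC (median 1368) and a log2 fold change of -1.19 ± 0.33 (limma adjusted p 0.0132). It was lower in 5 of 6 mice, and the carcinoma of mouse 3 was higher than its CHR by 0.55. Cd200 had 116 to 1074 in SCC (median 305) and a log2 fold change of -1.25 ± 0.42 (adjusted p 0.0332). This call was fragile, with an adjusted p of 0.0632 without mouse 3, 0.0763 without mouse 7, 0.125 without mouse 9, 0.0895 without mouse 10 and 0.0538 in limma-voom. The exception among the mice was mouse 8, at 612 in CHR and 1074 in SCC.

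The remaining 4 members were not called in SCC vs CHR. Cd34 had a log2 fold change of -0.17 (-1.08 to 0.75, limma adjusted p 0.782), and its carcinomas were higher than CHR in 4 of 6 mice. Lgr5 had -0.61 (-1.19 to -0.04, adjusted p 0.086). Sox9 had 43.6 to 439 normalised reads in SCC (median 270) and -1.02 (-1.94 to -0.10, 0.0739), and Lhx2 had 2.18 to 21.9 (median 13.6) and -0.31 (-0.61 to -0.01, 0.0938).

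The study's progression model sorts genes that differ between SCC and CHR, at an unadjusted p below 0.05 in a mixed model with the mouse as random effect, by the step at which they change. Early genes also differ in PAP vs CHR, late genes in SCC vs PAP, and stepwise genes in both, each time in the direction of the difference between SCC and CHR. Lgr6, Lrig1, Nfatc1 and Cd200 were early in this model, 4 of 9 members against 41.1% of all genes. None of the 9 was late (2.2% of all genes) or stepwise (0.523%). Lhx2 and Hr differed between SCC and CHR but met the condition at neither step, 2 of 9 against 4.58%. Cd34, Lgr5 and Sox9 did not differ between SCC and CHR in this model, 3 of 9 against 51.6%.

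These classes rested partly on single mice. Lgr6, Lrig1 and Nfatc1 were early under every alternative. Cd200 was not without mouse 7, mouse 9 or mouse 10, nor with adjusted p. Hr became late without mouse 10 and early without mouse 8, Lgr5 became early without mouse 2, and Lhx2 became early without mouse 7.

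Levels of different genes were compared per kb of merged exon length, as normalised reads per kb. In CHR the order was Hr at 742 ± 311 (mean ± SD, n = 6), Lrig1 at 634 ± 243, Cd34 at 406 ± 119, Cd200 at 253 ± 59.5, Sox9 at 146 ± 74.3, Nfatc1 at 111 ± 12.2, Lgr5 at 19.7 ± 8.32, Lgr6 at 14.4 ± 5.96 and Lhx2 at 5.34 ± 2.66. Ranges over libraries overlapped between all neighbours in this order except Nfatc1 and Lgr5. The same gap between Nfatc1 and Lgr5 was present in PAP and in SCC. In PAP the order of means was as in CHR, and in SCC Cd34 came first with 437 ± 335, ahead of Hr with 365 ± 220, in 3 of 6 libraries.

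**Figure D3:**
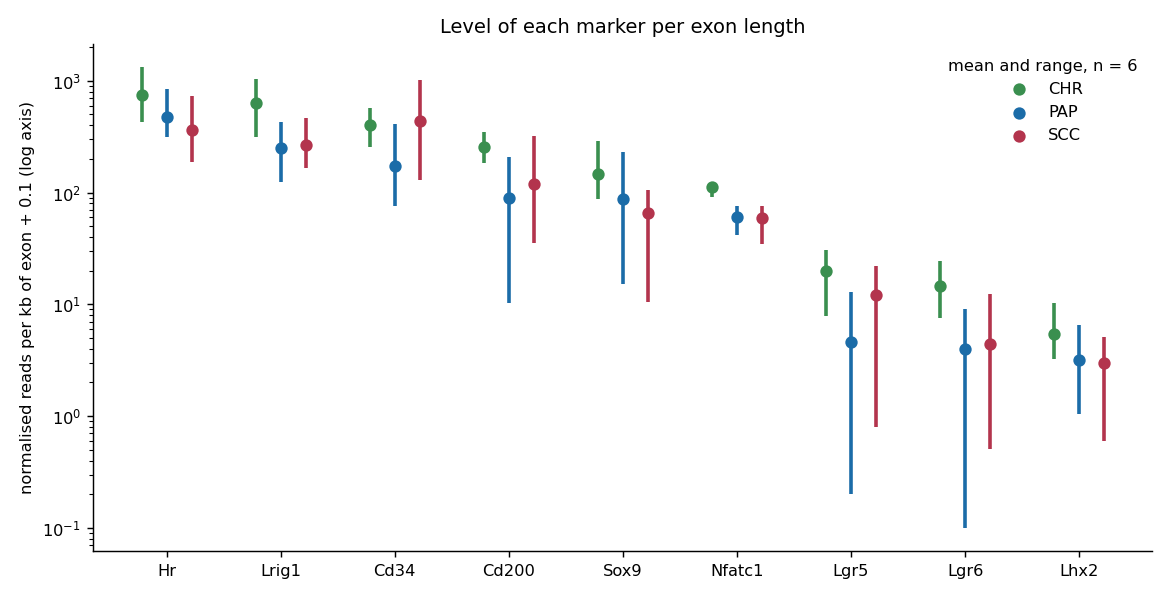
Mean and range (n = 6) of normalised reads per kb of exon, + 0.1 on a log axis, for the 9 members in CHR, PAP and SCC, ordered by the mean in CHR. Lgr5, Lgr6 and Lhx2, at 5.34 to 19.7 reads per kb in CHR, have lower means than the other 6 members in every group, while in PAP and SCC some of their ranges overlap those of Cd200 or Sox9, and the range on the log axis is wider in PAP and SCC than in CHR for most genes.

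Members varied together to different degrees. Over the 18 libraries, the 36 pairs of members had a median Pearson r of 0.54 on log2(value + 1), and 20 pairs exceeded 0.5. The highest r was 0.84 for Lgr6 and Nfatc1, and the lowest was -0.20 for Cd34 and Hr. With group and mouse means removed, the median was 0.29, the highest 0.82 for Sox9 and Cd200 and the lowest -0.57 for Lgr5 and Lhx2. These correlations are descriptions over libraries that share mice, groups and size factors.

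Among all genes, the one most like Lgr6 over the 18 libraries was Krt79 (r = 0.90), a keratin gene of the upper follicle and its ducts. For Lgr5 it was Gria3 (0.93), for Nfatc1 Iqsec2 (0.95), for Lrig1 Sema6a (0.92), for Cd200 KCTD12 (0.92), for Sox9 Ntn4 (0.87), for Hr Acaa2 (0.90), for Cd34 Stbd1 (0.90) and for Lhx2 Ncoa2 (0.80). The second for Lhx2 was Lgr6 itself (0.79). With group and mouse means removed, the first was Tcf7l2 for Lgr6 (0.91), Slc6a7 for Lgr5 (0.94), Pcdh20 for Nfatc1 (0.99) and Slc12a2 for Lrig1 (0.94). It was KCTD12 for Cd200 (0.91), Atg4c for Sox9 (0.96), Mfsd6 for Hr (0.91), Tmem256 for Cd34 (0.94) and Bcl11a for Lhx2 (0.91). All r are over 18 libraries, but with group and mouse means removed fewer than 18 independent values remain. Each first-ranked r is also the highest among all genes, so a high value can arise by chance. Whether any r exceeds what chance gives was not tested.

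Other follicle genes moved in both directions. Of 6 genes of the upper follicle and ducts, 4 fell and 1 rose in PAP vs CHR, with a median log2 fold change of -2.44, 0 were called in SCC vs PAP (median -0.03), and 4 fell in SCC vs CHR (median -2.47). Krt79 had 38749 ± 20138 normalised reads in CHR (mean ± SD, n = 6) and 1537 ± 1285 in PAP, and it fell by 5.47 ± 0.98 (SE) on the log2 scale (limma adjusted p 0.000495). Defb6, a defensin gene, fell from 4654 ± 3427 to 215 ± 125 (-3.94 ± 0.55, adjusted p 6.93e-05). Krt17, a keratin gene of the outer root sheath that is also induced in hyperproliferative epidermis, rose from 41718 ± 16659 to 72324 ± 21426 (0.82 ± 0.29, 0.0288), a call lost without mouse 2, 8 or 9 (0.0661 to 0.0917).

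Of 15 other bulge and outer root sheath genes, 4 rose, 4 fell and 7 were not called in PAP vs CHR, with a median of 0.05. Those that rose most were Cdh3, which encodes P-cadherin, with 1.96 ± 0.24 (limma adjusted p 2.59e-05), and Itga6, an integrin gene of all basal keratinocytes, with 1.96 ± 0.20 (5.27e-06). Cdh3 went from 1328 ± 599 to 5350 ± 1786 normalised reads and Itga6 from 6125 ± 1864 to 24124 ± 7015 (mean ± SD, n = 6). In SCC vs PAP 1 of the 15 was called, Dkk3, a gene of the Dickkopf family, which rose from 1121 ± 458 to 2353 ± 818 (1.05 ± 0.20, 0.0106). This call was lost without mouse 7 (0.0711) or mouse 8 (0.0803), with only PAP and SCC in the fit (0.0512) and without the mouse as block (0.0565). In SCC vs CHR 5 were higher, 3 lower and 7 not called.

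**Figure D4:**
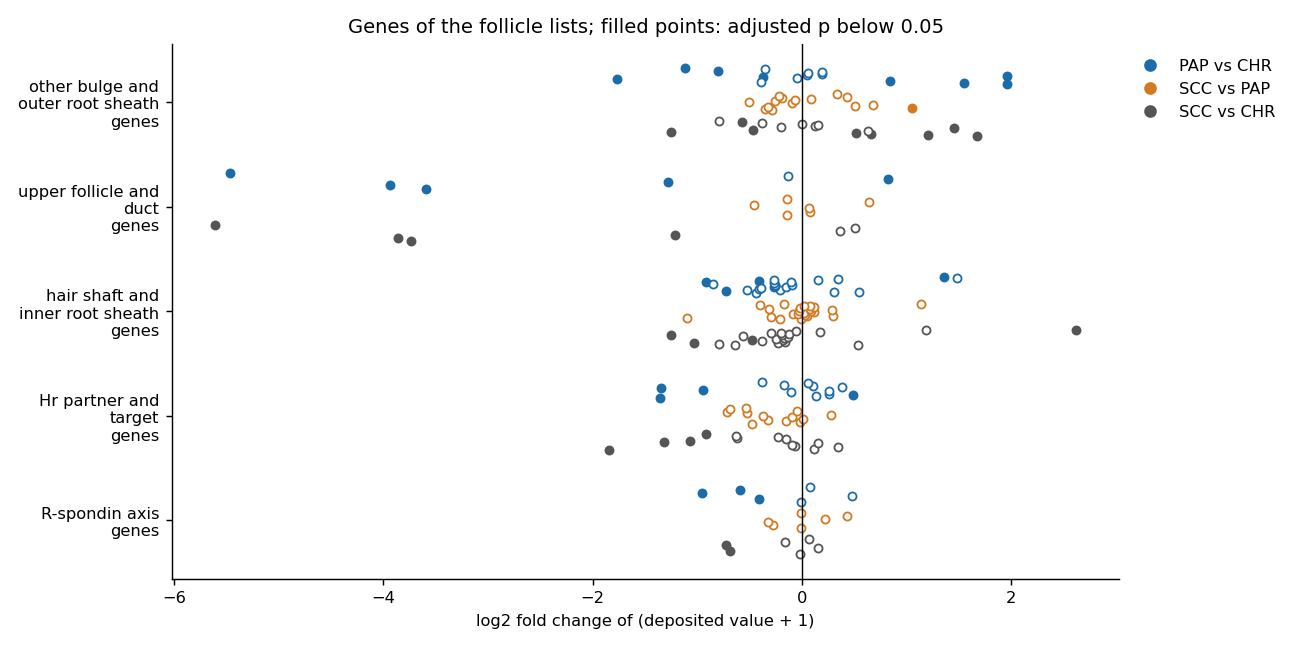
Log2 fold change of each gene of 5 follicle-related lists in PAP vs CHR, SCC vs PAP and SCC vs CHR, with filled points for an adjusted p below 0.05 in limma. Of the upper follicle genes, 4 of 6 lie below 0 and are filled in both comparisons with CHR, and the bulge list is spread to both sides with 4 higher and 4 lower in PAP vs CHR.

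The R-spondin axis, through which Lgr5 and Lgr6 act, had 6 of its 8 listed genes in the table. In PAP vs CHR 3 fell and 0 rose (median -0.21), with Rspo1 at 43.9 ± 9.86 normalised reads (mean ± SD, n = 6) in CHR and 6.35 ± 6.51 in PAP (log2 fold change -0.96 ± 0.18, limma adjusted p 0.000636) and Rspo3 from 17.4 ± 4.67 to 2.42 ± 2.37 (-0.59 ± 0.13, 0.00237). Lgr4, a more widely expressed receptor of this family, went from 1528 ± 275 to 1137 ± 226 (-0.41 ± 0.16, 0.046), a call lost without mouse 2, 7, 8, 9 or 10 (0.0824 to 0.159). Axin2, a direct Wnt target named here after its values were seen, was at 497 ± 119 in CHR, 501 ± 167 in PAP and 490 ± 112 in SCC. In SCC vs PAP 0 of 6 were called, and in SCC vs CHR 2 fell.

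Hr acts with nuclear receptors. Of 13 partner and target genes measured, 3 fell and 1 rose in PAP vs CHR (median 0.06), 0 were called in SCC vs PAP (median -0.33), and 4 fell in SCC vs CHR (median -0.23). Dkkl1, of the Dickkopf-like family, had 425 ± 145 normalised reads (mean ± SD, n = 6) in CHR and 139 ± 107 in PAP, with -1.36 ± 0.30 on the log2 scale and a limma adjusted p of 0.00203. Ncor1, a general corepressor gene, was at 5937 ± 256 in CHR, 5512 ± 704 in PAP and 5587 ± 841 in SCC.

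Genes of the hair shaft and inner root sheath were mostly scarce. Of 23 measured, 3 fell and 1 rose in PAP vs CHR (median -0.26), and 0 were called in SCC vs PAP. The summed level was 1192 to 2164 normalised reads in CHR of 5 mice and 5647 in that of mouse 8. It was 1887 to 3849 in PAP and 1435 to 3890 in SCC. The sum follows the listed genes with the most reads, such as Tchh, more than the scarce keratin genes. Krt73, an inner root sheath keratin gene, went from 116 ± 97.1 to 32 ± 25.1 (mean ± SD, n = 6; -0.92 ± 0.22, limma adjusted p 0.0035), while Tchh, which encodes trichohyalin, rose from 366 ± 563 to 717 ± 355 (1.36 ± 0.48, 0.0312), a call lost without mouse 2, 3, 7, 9 or 10 (0.0665 to 0.113).

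Markers of other cell types also differed between the groups, in both directions. Sebaceous gland markers fell in PAP vs CHR in 8 of 8 genes, from summed levels of 39220 to 87767 normalised reads in CHR to 2773 to 6243 in PAP and 2734 to 11782 in SCC, with Far2 at -5.29 ± 0.59 (limma adjusted p 1.08e-05). Basal keratinocyte markers rose in 6 of 7 genes, from 145794 to 229428 in CHR to 434741 to 705075 in PAP, and reached 159366 to 470149 in SCC. Suprabasal markers fell in 1 of 6 genes in PAP (192136 to 513358 in CHR, 34454 to 234956 in PAP), namely Krt10 (adjusted p 0.0476), which was not called in limma-voom (0.073) or without mouse 3, 8, 9 or 10 (0.0813 to 0.0878), and in 4 of 6 in SCC vs CHR (13600 to 335655 in SCC).

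Markers of the dermis and of tissue beneath it were lower in papillomas. Dermal fibroblast markers fell in 6 of 8 genes, from 138741 to 307356 summed normalised reads in CHR to 5496 to 161883 in PAP, and 3 rose in SCC vs PAP, to 17962 to 497510. Skeletal muscle markers fell in 8 of 8 (56784 to 148733 in CHR, 120 to 5818 in PAP, 101 to 20808 in SCC), adipocyte markers in 7 of 8 (7545 to 20088, 1452 to 12783 and 1317 to 22287) and mast cell markers in 7 of 7 (6208 to 11625, 121 to 2093 and 1498 to 3859). The adipocyte sums in lesions follow Fabp4, the 1 marker of that list not called. Its means were 4447 normalised reads in CHR, 6129 in PAP and 9762 in SCC. Those of Cfd were 5382, 21.3 and 298, and those of Adipoq were 1216, 11.2 and 74.7. Myeloid markers fell in 7 of 8 (41959 to 66948, 2000 to 9685 and 4660 to 63775) and T cell markers in 7 of 7 (980 to 2097, 142 to 508 and 361 to 1110).

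Endothelial markers fell in 4 of 8 genes and rose in 1, with sums of 4753 to 6898 normalised reads in CHR, 3131 to 5695 in PAP and 5303 to 8241 in SCC, and 4 of 8 rose in SCC vs PAP. No defining marker of these lists was at a group mean of 0. Cd34, known from vessels, fibroblasts and mast cells, was thus lower in PAP together with 4 of 8 endothelial, 6 of 8 fibroblast and 7 of 7 mast cell markers. In SCC vs PAP, where Cd34 was not called, 4, 3 and 3 of these markers were higher, as were 7 of 8 skeletal muscle, 7 of 8 myeloid, 1 of 8 sebaceous, 1 of 7 T cell and 0 of 8 adipocyte markers. All of these SCC vs PAP calls were lost without mouse 7, without mouse 8 or with only PAP and SCC in the fit, where limma called 0 genes. The part of any of these cell types in the member results was not tested.

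**Figure D5:**
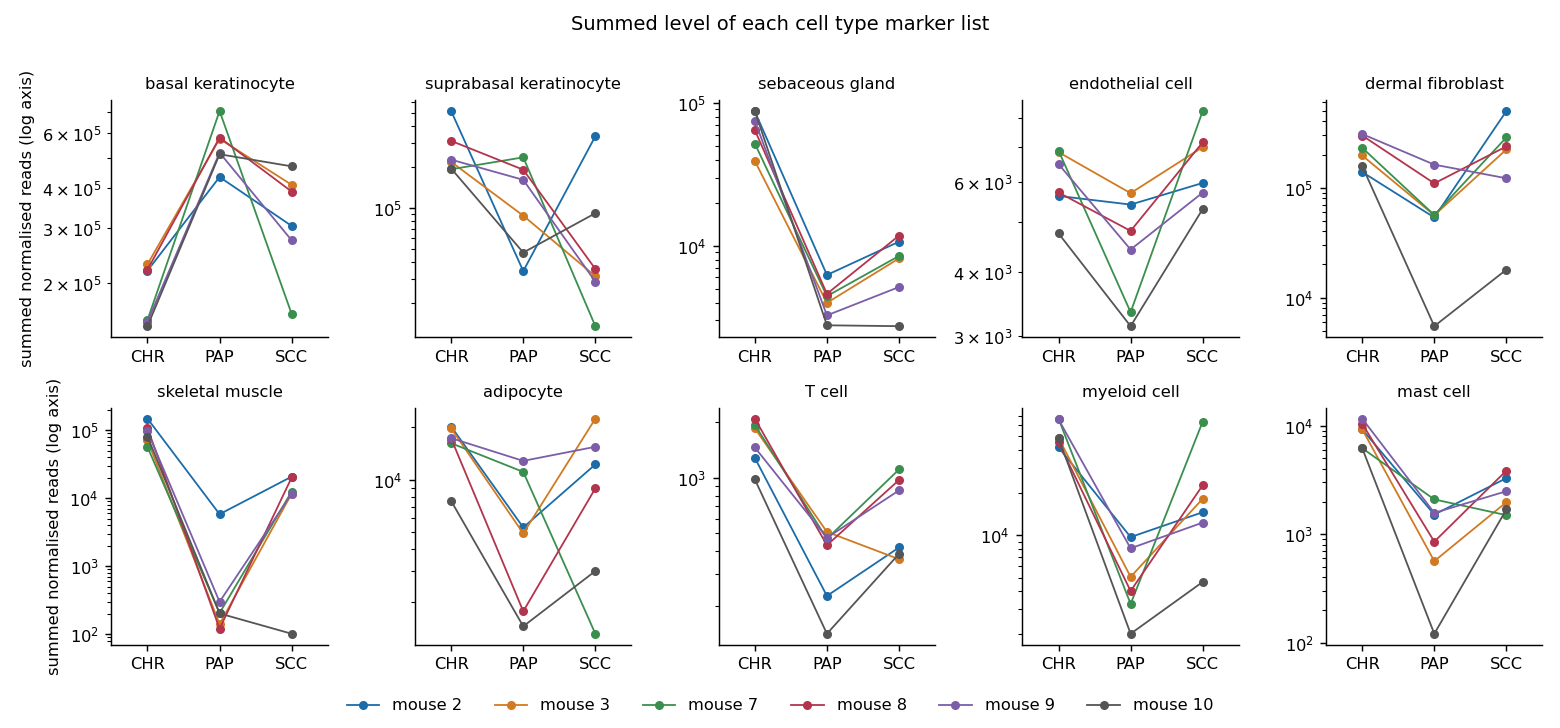
Summed normalised reads of 10 cell type marker lists in each library, on a log axis, with lines joining the libraries of 1 mouse. Sebaceous gland, skeletal muscle and mast cell sums were lower in all papillomas than in any CHR library, and basal keratinocyte sums were higher in all papillomas (at least 434741) than in any CHR library (at most 229428).

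The carcinoma of mouse 10, which stood apart in muscle and fibroblast markers, had the lowest Cd34 (938), Lgr5 (7.16), Lrig1 (934) and Cd200 (116) of the carcinomas and the highest Hr (5091). Its papilloma had the lowest Lgr5 (1.05), Sox9 (61.9), Cd200 (33.6), Nfatc1 (309) and Lhx2 (4.2) of the papillomas. Conversely the papilloma of mouse 2 had the highest Cd34 (2990), Lgr5 (131), Lrig1 (2405), Sox9 (960) and Cd200 (697) of its group, and the highest skeletal muscle sum (5818) and myeloid sum (9685). Without mouse 10 6 members were called in PAP vs CHR and 4 for SCC vs CHR, while leaving out mouse 2 gave 7 and 5.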

How the data were processed

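Total RNA of 18 skin samples was sequenced, and per the labels reads were counted with HTSeq on mm10 (GRCm38). According to the methods of the study, reads were aligned before counting, counts were divided by scaling factors, and the variance-stabilizing transformation was applied. The deposited table holds the transformed values, back on a linear scale and rounded, a score in which 0 reads appear as 39. They are not raw counts. Aligner version, annotation release and strandedness of counting were not given in the sources used here. The study also describes a batch correction that set each gene's median to the same value in every batch, and no label gives a batch.

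Of 14542 entries, 21 with a number in place of a symbol (at most 0.236% of a library's total) were left out. All 18 sample columns were used. Over 153 pairs of libraries, at most 2.24% of values were identical, so none was a duplicate. Reads were recovered by inverting the transformation with a zero level of 39.13 and 1 size factor per library (0.835 to 1.18), both estimated from the steps between low values, and 99.7% of values came out whole (98.7% in the lowest library). Normalised reads are these recovered reads divided by the size factor. The 95% intervals come from the limma fit and reflect the spread between libraries that is left after group and mouse. The floor of a 0 (3 counts) covers counting error only.

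The members and all lists were chosen with earlier results of these data known. limma 3.58.1 (R 4.3.3) was fitted to log2(value + 1) of all 18 libraries with group and mouse as fixed terms, and two-sided p-values were adjusted by Benjamini-Hochberg over 14521 genes with a threshold of 0.05. The pseudocount was 1 and no gene was filtered. The samples of a number come from the same mouse, which pairs them. Deviations from group means correlated within mice at -0.23 to 0.22 (PAP and CHR), -0.24 to 0.39 (SCC and PAP) and -0.09 to 0.51 (SCC and CHR). Progression classes came from a mixed model on log2(value), whose closed form was checked against nlme 3.1.168 on 200 genes (100% of calls the same). Scripts were tested on simulated data. Named genes were all members and, of each list, the genes with the largest and second largest absolute change among those called in SCC vs PAP and, separately, in PAP vs CHR, or the one with the highest mean where none was called. For likeness, the 2 genes with the highest r per member were taken. Gene models and exon lengths were those of GENCODE M21. Alternatives were another block, limma-voom on recovered reads with both kinds of library size, another pseudocount, log2 of recovered reads, a minimum mean of 10 reads, fits of 2 groups and leaving out each mouse. Krt24, Krt32, Krt36, Krt85, Rorb, Rspo2, Rspo4, Trac and Flg had no row in the table used here, and Adgre1 was matched through its older symbol Emr1. Krt17 and Lgr4 in PAP vs CHR were named after their values were seen. 1 gene that the rule names is not reported here.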

Additional observations from a re-analysis of the deposited data

Results flagged for a closer look

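By Dixon's criterion at the 95% level, 4 of 27 groups of 6 libraries (9 members in 3 groups) held an outlying library. Its distance to its nearest neighbour was large against the group's whole range, in normalised reads and not on a log scale. Chance gives this in about 1 of 20 groups if values are independent and normally distributed. That distribution was not tested and the groups share libraries, so the rate may not apply here. Cd34 in the papilloma of mouse 2 was 2990 normalised reads, against 555 to 1285 in the other papillomas. Sox9 in CHR of mouse 10 was 1195, against 362 to 666. Cd200 in the carcinoma of mouse 8 was 1074, against 116 to 467. Hr in CHR of mouse 10 was 9185, against 2972 to 5291. Without mouse 10, the log2 fold change in PAP vs CHR went from -0.87 to -0.39 for Sox9 (adjusted p 0.391 in limma) and from -0.62 to -0.39 for Hr (0.178). Without mouse 2, that of Cd34 went from -1.35 to -1.69 (0.00705), and without mouse 8, that of Cd200 in SCC vs CHR went from -1.25 to -1.64 (0.0116).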

How the results depend on the processing

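Without the mouse as replicate block, which the pairing by animal calls for, SCC vs PAP gave 810 genes in place of 1430, and the number of members called was the same in all 3 comparisons (6, 0 and 5). With only the 2 groups compared in the fit, SCC vs PAP gave 0 genes and SCC vs CHR 8 members. Limma-voom with either library size called 1 member in SCC vs PAP. Leaving out 1 mouse gave 0 to 1995 genes and 0 to 2 members in SCC vs PAP, and 0 to 1 late member. Differences near 0 changed sign. In SCC vs PAP, leaving out 1 mouse gave log2 fold changes of -0.12 to 0.02 for Nfatc1 (above 0 without mouse 3 or 9), -0.00 to 0.27 for Lgr6, -0.47 to 0.18 for Sox9 (above 0 without mouse 2), -0.14 to 0.12 for Lhx2 (above 0 without mouse 7) and -0.00 to 0.06 for Ncor1, and limma-voom with total reads as library size gave 0.01 for Nfatc1. In SCC vs CHR, Cd34 ranged from -0.37 to 0.17 (above 0 without mouse 10). The cause was not tested. Of the members' other values, 351 kept direction and side of the threshold, 11 gained the call and 9 lost it, and of the other named genes' values 662 kept both, 1 gained and 91 lost it. Lgr5, Lgr6, Lrig1, Nfatc1 and Cd200 in PAP vs CHR and Lgr6, Lrig1, Nfatc1 and Hr in SCC vs CHR were called under all 14 alternatives. Depth limits Lhx2, Lgr5 and Lgr6 in lesions, where single libraries held 0 to 8 reads.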
